A study of Arabidopsis thaliana with 6 samples.

Results

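The genes of the preprophase band and the plant division site were followed in root tips of Arabidopsis thaliana carrying the scl28-3 allele of SCL28, a gene for a GRAS-family transcription factor, and in wild-type (WT) root tips. The 10 genes were chosen by gene ID from what their products are known to do, and all 10 stood among the 21125 genes listed in the deposited tables. They were TON1A (AT3G55000), TON1B (AT3G55005), TON2 (AT5G18580), TRM6 (AT3G05750), TRM8 (AT5G26910), TAN (AT3G05330), AIR9 (AT2G34680), PHGAP1 (AT5G12150), PHGAP2 (AT5G19390) and RANGAP1 (AT3G63130). The mutant group held 3 libraries from scl28-3 plants and the control group 3 libraries from WT plants, each given as a biological replicate, without saying whether the plants were grown separately, so p-values measure the spread between these libraries. All plants were 6 days old and had grown in continuous light at 21 °C on Murashige and Skoog agar with sucrose. About 300 tips of about 2 mm were pooled for a library. The labels named no other allele, transgene or treatment.

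Before a plant cell divides, a ring of cortical microtubules, the preprophase band, forms beneath the plasma membrane and marks where the new cell wall will join the mother wall. The band disappears as the spindle forms, and proteins left at the cortical division site keep the mark until the phragmoplast, the structure that builds the new wall, reaches it. TON1, TON2 and TRM proteins form a complex needed to build the band. TAN, AIR9, the PHGAP proteins and RANGAP1 belong to the group that labels the band, the site it leaves, or both. In root tips the orientation of these divisions keeps cells in files.

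The values were CPM, reads of a gene scaled to the size of its library, and whole reads could be recovered from them. The scl28-3 libraries held 13996534, 14209063 and 16780424 reads and the WT libraries 11572901, 10399899 and 11395977 reads. SCL28 was at 17.72, 14.92 and 13.65 CPM in scl28-3 and at 44.50, 42.59 and 42.38 CPM in WT, and no library went against its label. WT library 1 stood apart from the rest on the first principal component of all tested genes, at -35.6, while the scl28-3 libraries were at -9.44, 4.92 and 19.5 and the other WT libraries at 3.36 and 17.3. The root meristem list of PLT1, PLT2, WOX5, SCR and SHR summed to between 140 and 150.3 CPM in scl28-3 and to between 124 and 162 CPM in WT. The leaf photosynthesis list of 4 genes summed to 22.7 CPM at most in scl28-3 and 21.2 CPM at most in WT.

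None of the 10 genes was called different between the genotypes. All 10 passed the filter on low values and were tested with limma on log2(CPM + 0.5) among 17879 genes, with Benjamini-Hochberg adjustment over all of them and a threshold of 0.05. The members' adjusted p ran from 0.995 to 0.998, and 0 had an unadjusted p under 0.05. Across all genes tested, 0.0727% were called and 4.37% had an unadjusted p under 0.05. The quasi-likelihood test of edgeR on recovered reads also called 0 of the 10, with 0 at an unadjusted p under 0.05, and DESeq2 called 0. For none of the 10 did the 3 scl28-3 libraries lie apart from the 3 WT libraries. Of all genes tested, 10.4% had no overlap, 6.19% with scl28-3 higher and 4.22% with scl28-3 lower. Among only 10 genes, a count of 0 is near that share and does not set the members apart. These are measurements of whole root tips, in which fewer cells of a type and less RNA per cell cannot be told apart.

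The intervals give the size of difference these libraries leave room for. All 10 genes had a 95% interval within 1.5-fold in either direction. The intervals of TON1A, TON1B, TON2 and PHGAP1 were the narrowest and lay between -0.25 and 0.25 on the log2 scale. The lowest bound of any of them was 0.745-fold, for RANGAP1, and the highest 1.30-fold, for TAN and AIR9. Of the 10, 6 had a value below 0 and 4 a value above 0, with a median log2 difference (scl28-3 minus WT) of -0.03, beside 0.01 for all genes tested. Their median absolute log2 difference was 0.05, beside 0.10 for all genes tested. Their median residual SD was also lower, at 0.12 beside 0.16 for all genes tested. In the lists of division plane, partner and mitotic genes described below, the median absolute log2 difference ran from 0.04 to 0.11. The median residual SD of these lists ran from 0.08 to 0.18. Neither value of the members is thus particular to them. SCL28 itself differed by -1.48 ± 0.12 on the same scale (SE, n = 3 each, limma adjusted p = 0.0022).

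**Figure D1:**
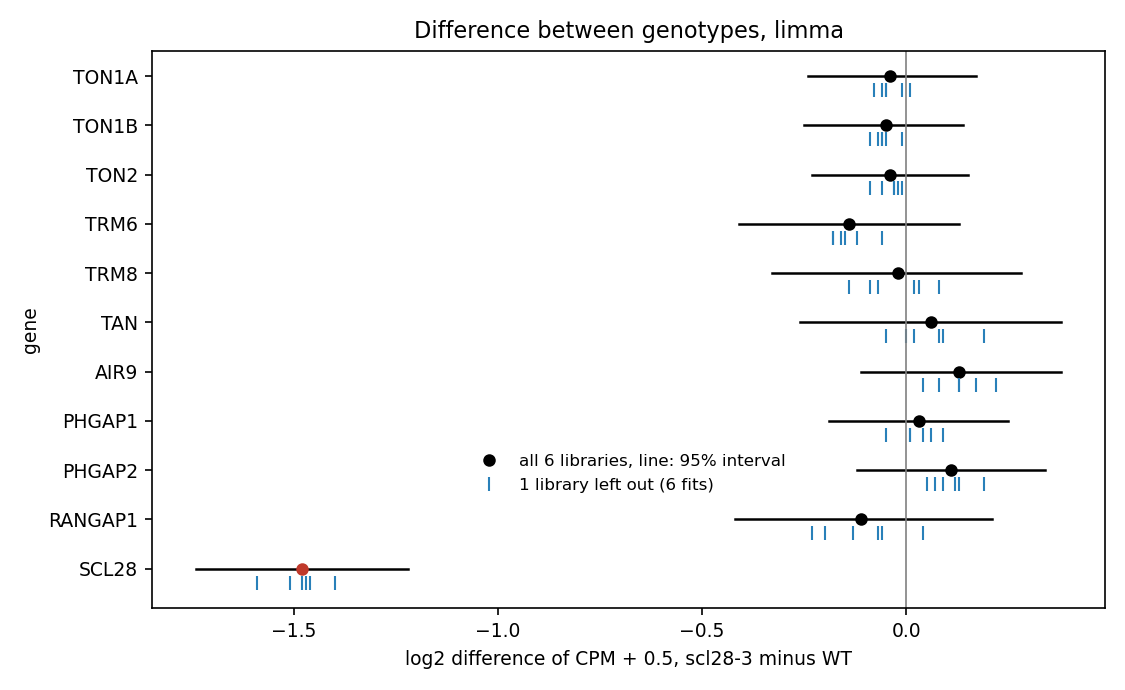
Log2 difference of CPM + 0.5 (scl28-3 minus WT) for the 10 genes and SCL28, with points for the limma fit to 3 scl28-3 and 3 WT libraries, horizontal lines for its 95% intervals and blue ticks for the 6 fits that leave out 1 library. The intervals of all 10 genes cross 0 and lie between -0.42 and 0.38, while SCL28 sits at -1.48.

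TON1A and TON1B encode closely related small proteins that resemble proteins of animal centrosomes, and losing both removes the preprophase band. They lie in tandem on the plus strand of chromosome 3 in TAIR10.1, TON1A from 20381460 to 20383878 with 8 exons and TON1B from 20383896 to 20386452 with 7 exons, with 17 bases between them. How far their reads can be told apart depends on their sequence. Coding stretches of 80 bases without gaps and inside a single exon of both genes were therefore compared. The stretch with the fewest differences is shown, 5′ to 3′, with capitals at bases that differ between the copies. It starts at the start codon, at chr3:20381612-20381691 in TAIR10.1 for TON1A and chr3:20384131-20384210 for TON1B, and holds 3 differences.
TON1A: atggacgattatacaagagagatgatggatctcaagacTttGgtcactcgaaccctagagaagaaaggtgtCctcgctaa
TON1B: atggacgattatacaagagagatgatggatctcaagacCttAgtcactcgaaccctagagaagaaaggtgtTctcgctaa
Over the whole coding sequences, 689 of 786 aligned positions were identical (87.7%). The longest run shared without a difference by the annotated transcripts was 45 bases, and no stretch of 50 bases of either occurred in the other. Read length was not given in the sources used here, so how far counting split or dropped shared reads is uncertain for both genes.

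The levels of TON1A and TON1B overlapped each other in both genotypes. TON1A was at 44.37, 45.25 and 42.67 CPM in scl28-3 and at 42.34, 47.02 and 44.75 CPM in WT. TON1B was at 42.65, 42.93 and 42.61 CPM in scl28-3 and at 41.91, 42.02 and 47.47 CPM in WT. The scl28-3 values of both genes lay inside the range of the WT values. The log2 difference (scl28-3 minus WT) was -0.04 ± 0.09 for TON1A and -0.05 ± 0.09 for TON1B (SE, n = 3 each), with intervals from -0.24 to 0.17 and from -0.25 to 0.14. Their sum, which does not depend on how reads were split between the copies, averaged 86.8 ± 1.46 CPM in scl28-3 and 88.5 ± 4.01 CPM in WT (SD, n = 3 each). The sums did not differ beyond this spread in a two-sided exact permutation test (p = 0.6). With 3 against 3 libraries the smallest p such a test can give is 0.1, and 10 such tests were made here, each with a Benjamini-Hochberg adjusted p of 1.

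TON2, also called FASS, encodes a regulatory B″ subunit of protein phosphatase 2A, and its loss likewise removes the band. The gene lies on the plus strand of chromosome 5 from 6174972 to 6178401, with 12 exons. It was at 92.23, 88.18 and 89.74 CPM in scl28-3 and at 93.92, 92.79 and 86.78 CPM in WT. All 6 values thus lay close together, with a coefficient of variation of 2.27% in scl28-3 and 4.21% in WT, where counting alone (the inverse square root of the mean reads) gives 2.72% in scl28-3 and 3.14% in WT. The log2 difference was -0.04 ± 0.08 (SE, n = 3 each; interval from -0.23 to 0.15). TON2 shares 48 exon bases with AT5G18590 on the opposite strand, which averaged 31.8 ± 1.31 CPM in scl28-3 and 28.9 ± 0.811 CPM in WT (SD, n = 3 each), and 21 with the noncoding RNA AT5G02905, which was not analysed here. Whether counting used the strand was not given in the sources used here.

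TRM6 and TRM8 belong to the TON1 Recruiting Motif family, whose members bring TON1 and TON2 to microtubules. TRM6 occupies positions 1703850 to 1707730 of chromosome 3 (plus strand) and TRM8 positions 9465849 to 9470403 of chromosome 5 (minus strand). TRM6 was at 9.93, 9.99 and 9.65 CPM in scl28-3 and at 12.18, 9.90 and 10.35 CPM in WT. WT library 1 was the highest of the 6 for this gene, and the other 5 libraries lay between 9.65 and 10.35 CPM. The log2 difference was -0.14 ± 0.12 (SE, n = 3 each; interval from -0.41 to 0.13). It was -0.06 without WT library 1 and -0.18 without WT library 2 or WT library 3. TRM8 was at 25.08, 19.78 and 20.32 CPM in scl28-3 and at 25.32, 19.90 and 20.18 CPM in WT. Within each genotype the library numbered 1 was the highest for TRM8, and the values of the genotypes nearly coincided. The difference was -0.02 ± 0.14 (interval from -0.33 to 0.28), and 0.08 without WT library 1. TRM6 rested on the fewest reads of the 10 genes, between 139 and 162 in scl28-3 and between 103 and 141 in WT.

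**Figure D2:**
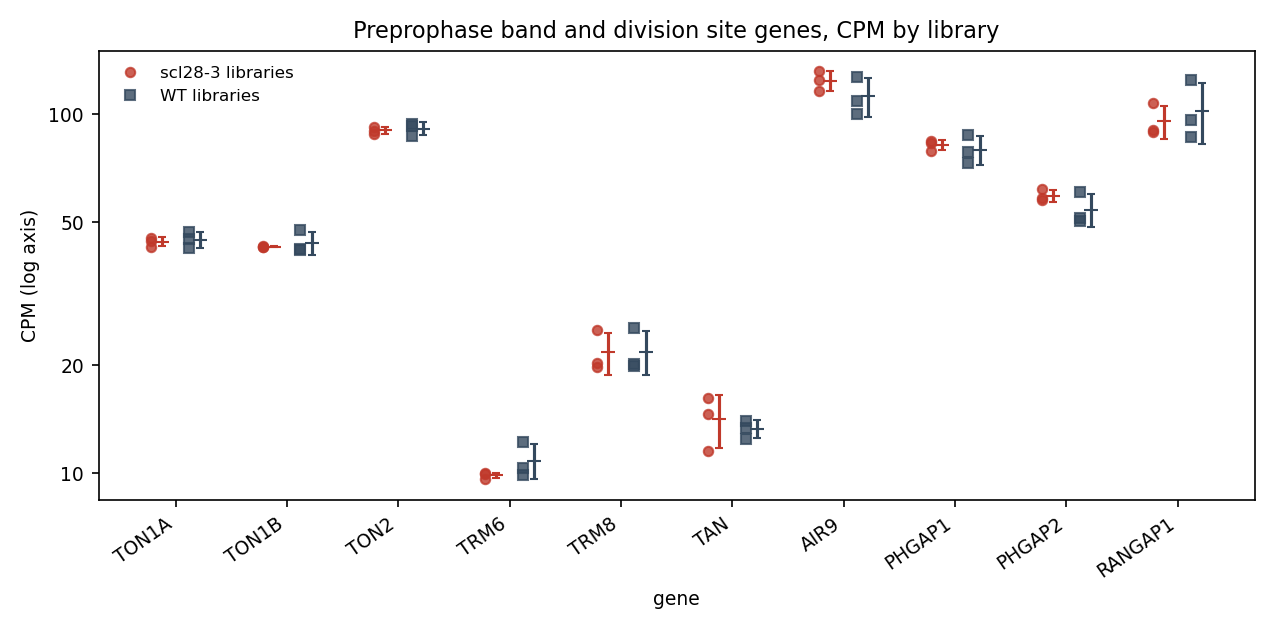
CPM of the 10 genes on a log axis, with circles for the 3 scl28-3 libraries and squares for the 3 WT libraries, and beside each the mean with its SD. For every gene the ranges of the 2 genotypes overlap, from TRM6 near 10 CPM to AIR9 between 116.26 and 131.67 CPM in scl28-3 and between 100.12 and 127.28 CPM in WT.

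TAN, the Arabidopsis counterpart of maize TANGLED, binds microtubules and stays at the division site through mitosis and cytokinesis. Its gene occupies positions 1518857 to 1521909 of chromosome 3 (minus strand). It was at 16.22, 14.64 and 11.56 CPM in scl28-3 and at 14, 13.36 and 12.46 CPM in WT. The highest and the lowest of the 6 values were both scl28-3 libraries, so the WT range lay inside the scl28-3 range. The coefficient of variation was 16.8% in scl28-3 and 5.83% in WT, beside 6.91% in scl28-3 and 8.23% in WT from counting alone. The log2 difference was 0.06 ± 0.14 (SE, n = 3 each; interval from -0.26 to 0.38). Leaving out scl28-3 library 1 gave -0.05, leaving out WT library 3 gave -0.00, and leaving out scl28-3 library 3 gave 0.19.

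AIR9 encodes a large microtubule-associated protein that decorates the preprophase band and returns to the site when the phragmoplast arrives. Its gene spans 14616601 to 14629207 on the minus strand of chromosome 2, with up to 38 exons. It was at 131.67, 116.26 and 124.19 CPM in scl28-3 and at 127.28, 109.03 and 100.12 CPM in WT. WT library 1 lay above 2 of the 3 scl28-3 libraries, and the other WT libraries lay below all 3. The means were 124 ± 7.71 CPM in scl28-3 and 112 ± 13.9 CPM in WT (SD, n = 3 each). The log2 difference of 0.13 ± 0.11 (SE; interval from -0.11 to 0.38) was the highest of the 10 genes. It was 0.22 without WT library 1 and 0.04 without WT library 3, and called in neither.

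PHGAP1 and PHGAP2 are paired genes for GTPase-activating proteins with a pleckstrin homology domain, which switch off the ROP GTPases, and the kinesins POK1 and POK2 bring them to the division site. PHGAP1 occupies positions 3924107 to 3930441 (minus strand) and PHGAP2 positions 6531529 to 6538557 (plus strand) of chromosome 5. PHGAP1 was at 83.23, 84.03 and 79.14 CPM in scl28-3 and at 87.36, 78.46 and 73.00 CPM in WT. The scl28-3 libraries lay inside the WT range, with a log2 difference of 0.03 ± 0.10 (SE, n = 3 each; interval from -0.19 to 0.25). PHGAP2 was at 61.87, 58.27 and 57.56 CPM in scl28-3 and at 60.83, 51.44 and 50.28 CPM in WT. Again WT library 1 reached the scl28-3 values while the other WT libraries lay below them. The log2 difference of PHGAP2 was 0.11 ± 0.10 (interval from -0.12 to 0.34). It was 0.19 without WT library 1 and 0.05 without WT library 3.

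RANGAP1 activates the Ran GTPase, resides at the nuclear envelope and marks the division site from the preprophase band onward. Its gene lies on the plus strand of chromosome 3 from 23324479 to 23326973. It was at 107.16, 90.50 and 88.91 CPM in scl28-3 and at 124.16, 96.25 and 86.43 CPM in WT. The highest and the lowest values were both WT libraries, and the WT coefficient of variation of 19.1% was the largest of the 10 genes in either genotype, beside 2.96% from counting alone. The log2 difference was -0.11 ± 0.14 (SE, n = 3 each; interval from -0.42 to 0.21), and turned to 0.04 without WT library 1. RANGAP1 shares 107 exon bases with CSP41A on the opposite strand, which averaged 0.527 ± 0.153 CPM in scl28-3 and 0.36 ± 0.148 CPM in WT (SD, n = 3 each). It also shares 218 exon bases with the noncoding RNA AT3G09895, which was not analysed here.

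Per kilobase of exon the 10 genes spanned 17.1-fold between the highest and the lowest. TON2 was highest, at 49.7 ± 1.13 CPM per kilobase in scl28-3 and 50.3 ± 2.12 in WT (SD, n = 3 each). RANGAP1 followed at 42.6 ± 4.51 in scl28-3 and 45.6 ± 8.73 in WT. Its range over the 6 libraries, highest in WT library 1 at 55.38, overlapped that of TON2, from 47.89 to 51.83. The TON1 copies came next, TON1A at 35.7 ± 1.06 CPM per kilobase in scl28-3 and 36.2 ± 1.89 in WT, and TON1B at 33.7 ± 0.138 in scl28-3 and 34.5 ± 2.51 in WT. The genes for the GTPase-activating proteins and AIR9 held the middle of the order. PHGAP1 was at 25.8 ± 0.824 CPM per kilobase in scl28-3 and 25 ± 2.28 in WT. AIR9, with more CPM than any other of the 10 but the longest transcript, was at 20.5 ± 1.27 in scl28-3 and 18.5 ± 2.29 in WT, and PHGAP2 at 16.3 ± 0.636 in scl28-3 and 14.9 ± 1.59 in WT. The TRM genes and TAN were the lowest. TRM8 was at 5.78 ± 0.775 CPM per kilobase in scl28-3 and 5.8 ± 0.811 in WT. TAN was at 5.92 ± 0.992 in scl28-3 and 5.55 ± 0.324 in WT, and TRM6 at 2.79 ± 0.0513 in scl28-3 and 3.06 ± 0.341 in WT. Of neighbours in this order, TON2 and RANGAP1, TON1A and TON1B, AIR9 and PHGAP2, and TRM8 and TAN had overlapping ranges over the 6 libraries. The other neighbours did not. Ranges ignore which library a value came from, so genes with overlapping ranges can still keep the same order within every library. In level per kilobase, TON2 lay above 87.2% of the genes tested and TRM6 above 21.4%. Exon length counted every annotated isoform, so a gene with long isoforms that are not used in roots would be placed too low.

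**Figure D3:**
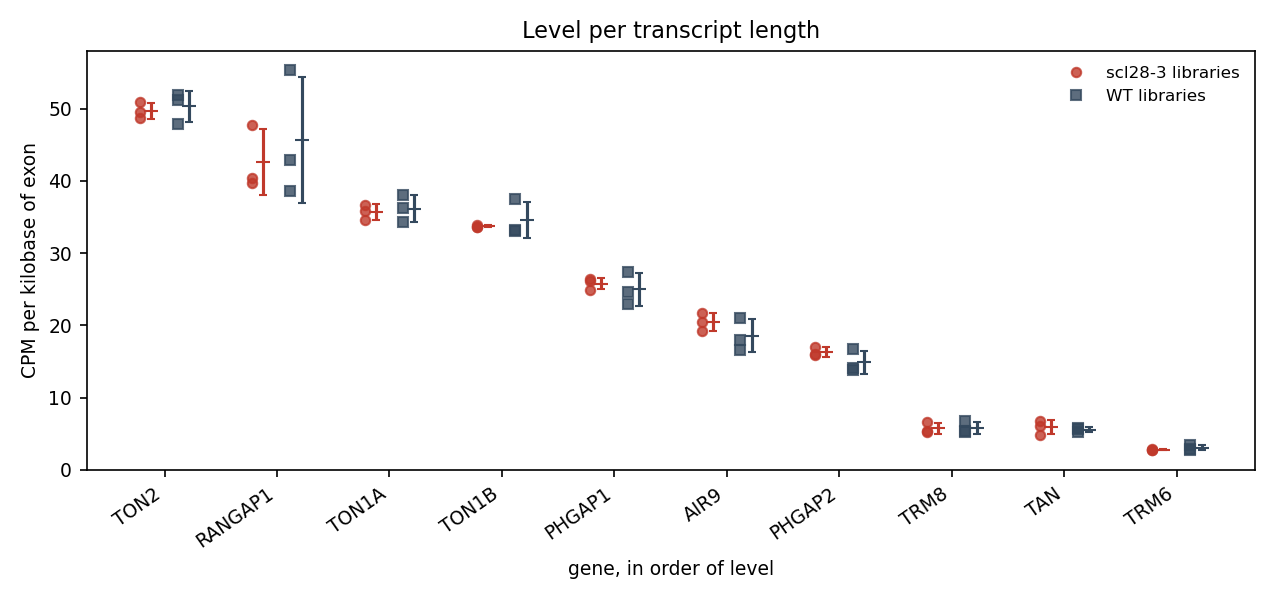
CPM per kilobase of exon for the 10 genes in order of level, on a linear axis from 0, with circles for the 3 scl28-3 libraries, squares for the 3 WT libraries, and means with SD beside them. TON2 stands near 50 in both genotypes and TRM6 near 3, and the order falls in steps with a gap between PHGAP2 and the group of TRM8, TAN and TRM6.

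The proportions of RNA within the band-building complex, and of TAN to AIR9 outside it, were compared as ratios of levels per kilobase. TON1A and TON1B together were at 1.4 ± 0.0448 times the level of TON2 per kilobase in scl28-3 and at 1.41 ± 0.121 times in WT (SD, n = 3 each; two-sided exact permutation p = 0.8). TRM6 and TRM8 together were at 0.123 ± 0.0114 times the level of the TON1 copies in scl28-3 and at 0.126 ± 0.022 times in WT (p = 1, the same exact permutation test). This ratio leaves out the other genes of the TRM family. Of these, LNG1 alone was at 33.6 ± 1.9 CPM per kilobase in scl28-3 and 31.1 ± 4.53 in WT. TAN, which stays at the site throughout, was at 0.289 ± 0.0461 times the level of AIR9, which leaves and returns, in scl28-3 and at 0.301 ± 0.0199 times in WT (p = 0.9, the same exact permutation test). All 3 differences were smaller than the SD within either genotype.

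The balance within paired genes was also compared, as the share of the first gene in the summed CPM of the pair. TON1A made up 50.8 ± 0.665% of the TON1 reads in scl28-3 and 50.5 ± 2.15% in WT (SD, n = 3 each; two-sided exact permutation p = 0.9). The WT libraries spread the most here, from 48.5% in WT library 3 (95% Wilson interval 45.5% to 51.6%) to 52.8% in WT library 2 (49.6% to 56%), and these intervals, which cover counting error only, overlap. PHGAP1 made up 58.1 ± 0.865% of its pair in scl28-3 and 59.5 ± 0.772% in WT (exact permutation p = 0.2). TRM6 made up 31.4 ± 2.69% of its pair in scl28-3 and 33.2 ± 0.711% in WT (exact permutation p = 0.4), with scl28-3 library 1 lowest at 28.4% (Wilson interval 24.6% to 32.5%). RANGAP1 made up 64.8 ± 0.98% of its sum with RANGAP2, its paralog, in scl28-3 and 65.3 ± 0.902% in WT (exact permutation p = 0.5). RANGAP2 was at 60.30, 49.90 and 46.06 CPM in scl28-3 and at 67.48, 52.21 and 43.79 CPM in WT, so the copies were high and low in the same libraries, and their shares stayed within 63.99% and 66.37% over all 6. The coding sequences of the other pairs are less alike than those of TON1A and TON1B, with 69.3% identical positions for the PHGAP genes, 69.6% for the TRM genes and 65.4% for the RANGAP genes.

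**Figure D4:**
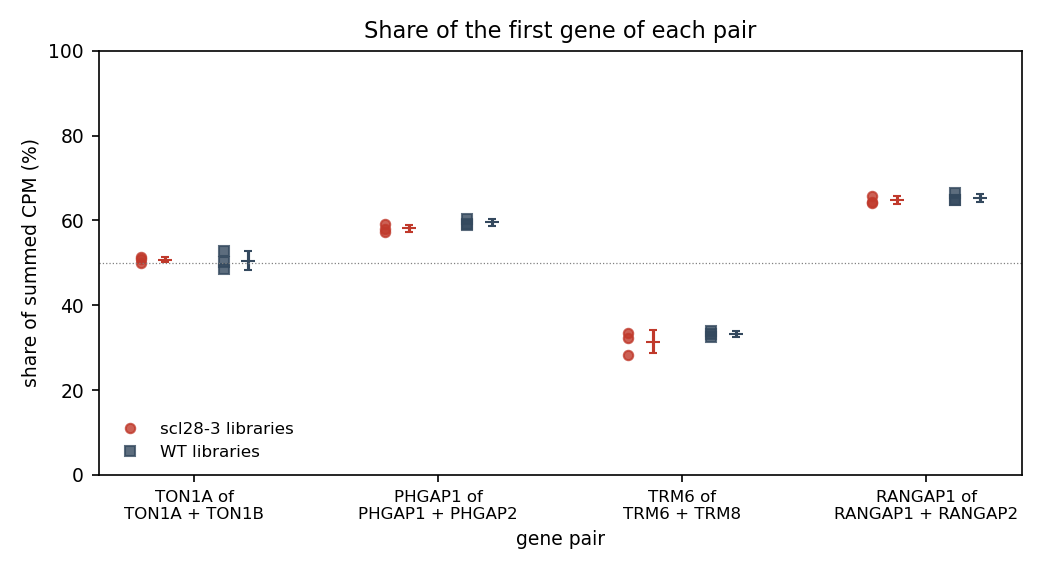
Share of the summed CPM taken by TON1A, PHGAP1, TRM6 and RANGAP1 in their gene pairs, on an axis from 0 to 100%, with circles for the 3 scl28-3 libraries, squares for the 3 WT libraries, and means with SD beside them. The genotypes overlap in all 4 pairs, and the pair means in scl28-3 and WT lie within 1.83 percentage points of each other.

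The spread between libraries of a genotype was larger than the difference between genotypes for most of the 10 genes. The range over the 3 scl28-3 libraries exceeded the absolute log2 difference between genotypes for 8 of the 10, and the range over the 3 WT libraries exceeded it for all 10. A range over single libraries tends to exceed a difference between means of 3 libraries when genotypes are alike. The share among all genes tested was not computed, so this is not shown to be particular to the 10 genes. After TMM scaling, the library numbered 1 was the highest for 6 of the 10 genes in scl28-3 and for 7 of the 10 in WT. By deposited CPM the counts were 6 in scl28-3 and 8 in WT, where TON2 was added. Among all genes tested, the shares after TMM scaling were 37.2% in scl28-3 and 38.9% in WT. Relative to the mean of all 6 libraries, the mean log2 level of the 10 genes was 0.08, -0.01 and -0.08 in scl28-3 and 0.12, -0.01 and -0.11 in WT. The libraries of a genotype thus differed more in this mean than the genotypes did. A list of 14 mitotic cyclins, B-type CDKs, Aurora kinases and the cytokinesis syntaxin KN was at 0.13, -0.04 and -0.08 in scl28-3 and at 0.14, -0.02 and -0.13 in WT. The endodermis list of 9 genes, which marks a differentiating tissue, was at 0.04, 0.06 and 0.56 in scl28-3 and at -0.86, -0.06 and 0.27 in WT. The means of the division site genes and of the mitotic list were highest in the library numbered 1 of each genotype. The endodermis list, of which no gene was at 0 in any library, was lowest in WT library 1, at -0.86. In scl28-3 its libraries 1 and 2 nearly tied, at 0.04 and 0.06, so the opposite order is clear in WT only. The part of these lists in the members' values was not tested. Without WT library 1, 6 of the 10 genes were higher in scl28-3 in the fit, with a median log2 difference of 0.06, beside 0.00 for all genes tested.

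**Figure D5:**
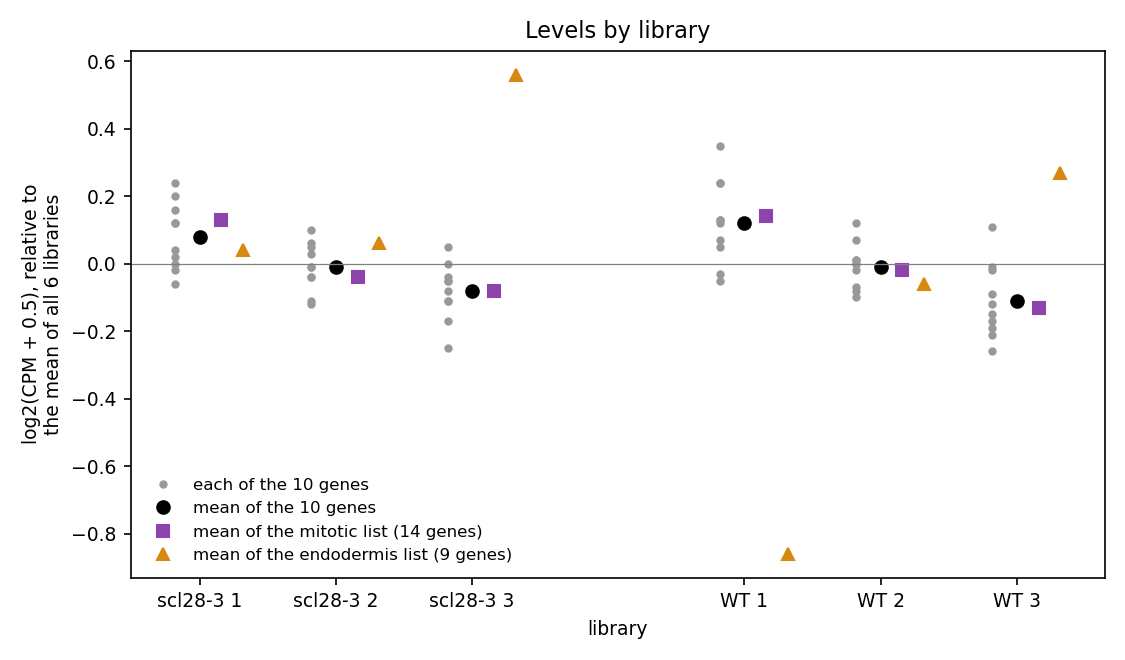
Log2(CPM + 0.5) relative to the mean of all 6 libraries, for each of the 10 genes (grey points), their mean (black circles), the mean of 14 mitotic genes (purple squares) and the mean of 9 endodermis genes (orange triangles), in the 3 scl28-3 and the 3 WT libraries. The mean of the 10 genes stays between -0.11 and 0.12, close to the mitotic list, and the endodermis list ranges from -0.86 in WT library 1 to 0.56 in scl28-3 library 3.

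Other genes of the division plane were examined as lists. Of 17 further division plane genes, 0 were called by limma in either direction, with 11 above and 6 below 0 and a median log2 difference of 0.05, which ran from -0.02 without WT library 3 to 0.16 without WT library 1. POK1, a kinesin that holds TAN at the division site, was at 41.94, 30.61 and 30.03 CPM in scl28-3 and at 38.19, 25.86 and 25.45 CPM in WT. POK2, the second such kinesin, was at 55.44, 38.28 and 38.67 CPM in scl28-3 and at 54.09, 30.10 and 34.66 CPM in WT. Both were highest in the library numbered 1 of each genotype. By CPM the same held for TON2, TRM8, TAN, AIR9, PHGAP2 and RANGAP1 among the members. Neither kinesin passed, with log2 differences of 0.18 ± 0.18 for POK1 and 0.16 ± 0.21 for POK2 (SE, n = 3 each). Without WT library 1 these were 0.37 for POK1 and 0.40 for POK2, and without scl28-3 library 1 they were 0.02 for POK1 and -0.03 for POK2. The most abundant of the list, MOR1, a microtubule polymerase, averaged 176 ± 10.1 CPM in scl28-3 and 162 ± 19.7 CPM in WT (SD, n = 3 each).

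The partners of TON2 in protein phosphatase 2A gave 0 called members of 8 scaffold and catalytic subunits, with a median of 0.00, and PP2AC4, the most abundant, was at 275 ± 20.7 CPM in scl28-3 and 261 ± 12.9 CPM in WT (SD, n = 3 each). Of 4 other genes of the TRM family, 0 were called and all 4 had values above 0, with a median of 0.11 (0.20 without WT library 1, 0.05 without WT library 2) and LNG1, which promotes organ elongation, at 121 ± 6.84 CPM in scl28-3 and 112 ± 16.3 CPM in WT. Of 6 ROP GTPase genes, targets of the PHGAP proteins, 5 were tested and 0 called, with a median of -0.04. ROP4, the most abundant, was at 76.7 ± 4.13 CPM in scl28-3 and 74.3 ± 8.28 CPM in WT, and ROP1, too low to be tested, at 0.50, 0.28 and 0.42 CPM in scl28-3 and 0.60, 0.19 and 0.61 CPM in WT. Of 6 genes for gamma-tubulin and its complex, which nucleates microtubules, 0 were called, with a median of 0.03 and TUBG2 at 32.2 ± 1.84 CPM in scl28-3 and 31.4 ± 4.73 CPM in WT. The mitotic list of 14 gave 0 called members and a median of -0.01.

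The promoters were searched for AACGG, the core of the mitosis-specific activator element found in many plant genes of late G2 and mitosis, on both strands of the 300 bases from 250 before to 50 after each annotated start in TAIR10.1. The letters occurred in 3 of the 10 windows (30%), those of TON2, TRM8 and AIR9, and in 24.7% of 27443 windows of protein-coding genes. The matches are shown with 12 bases on either side, 5′ to 3′ on the strand of the gene, with the match in capitals. They begin 128 bases before the start of TON2 at chr5:6174832-6174860 (plus strand), 165 bases before that of TRM8 at chr5:9470552-9470580 (minus strand), and 150 bases before that of AIR9 at chr2:14629341-14629369 (minus strand), where the match is on the reverse strand and reads CCGTT.
TON2: ctgataaatcttAACGGgactttatgtga
TRM8: gatctaatccatAACGGttttgtccatcg
AIR9: atacttttataaCCGTTttatcattttca
Each of these windows held 1 match. TON2, TRM8 and AIR9 had log2 differences of -0.04, -0.02 and 0.13, inside the range from -0.14 to 0.11 of the other 7 genes except for AIR9. A match of these letters is a description of the window and not a site of binding, and some windows overlap a neighbouring gene, that of TON2 with AT5G18570, that of TON1B with TON1A, that of TRM6 with AT3G05746 and that of RANGAP1 with AT3G63120.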

How the data were processed

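RNA from root tips was measured in 6 libraries, 3 scl28-3 and 3 WT, grouped by their titles. The authors deposited CPM per gene, per the file headers, and the values carry 2 decimals. HISAT2 2.0.0, HTSeq 0.6.1p1, edgeR and TAIR10 are named in the submitters' processing notes; the annotation release was not given in the sources used here. Low CPM values were whole multiples of the value of 1 read, and dividing by it gave whole reads for 100% of values within 0.1 read. A count of 3 reads was worth between 0.179 and 0.288 CPM.

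CPM was divided by TMM factors (edgeR 4.0.16) and fitted as log2(CPM + 0.5) with limma 3.58.1 (intensity trend, R 4.3.3) after filterByExpr with a minimum count of 10. Fold changes on this scale understate those of low genes. All genes were fitted and adjusted together by Benjamini-Hochberg, two-sided. Errors of log2 differences are SE and errors of CPM are SD. Single values were compared with exact permutation tests (scipy 1.17.1). Sequences (promoters from the genome, since no promoter table was used), exon lengths and coordinates came from RefSeq TAIR10.1, in which all 10 genes were found; the deposited tables hold no coordinates. Coding sequences were aligned globally with Biopython 1.88. The fit was tested on simulated data.

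The members and the gene lists, 102 entries in all, were chosen with earlier results of these data known. Genes named beside the members were SCL28, the most abundant and any called gene of each context list, RANGAP2, POK1 and POK2, and the 5 genes with the most similar profile. Outside this rule, genes overlapping a member or too low to test, and context genes whose libraries did not overlap between genotypes, were named after their values were seen. Alternatives were edgeR's quasi-likelihood test and DESeq2 1.42.0 on recovered reads, other scalings, pseudocounts of 0.1 and 2 CPM, other filters, a replicate block and leaving out each library.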

Additional observations from a re-analysis of the deposited data

How the results depend on the processing

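No member was called in any of the 15 other settings, where the lowest adjusted p of a member was 0.475. Of 150 recomputed log2 differences of members, 142 kept their direction and 8 turned, all of these 8 when a library was left out. With a library left out the values ran from -0.08 to 0.01 for TON1A, -0.14 to 0.08 for TRM8, -0.05 to 0.19 for TAN, -0.05 to 0.09 for PHGAP1 and -0.23 to 0.04 for RANGAP1, and the median of the members from -0.06 to 0.06. The difference in share (scl28-3 minus WT, percentage points) then ran from -0.752 to 1.39 for TON1A, where it turned, from -1.89 to -0.981 for PHGAP1, from -2.92 to -0.323 for TRM6 and from -1.11 to -0.0356 for RANGAP1. Over the whole table, 13 genes were called lower and 0 higher. Leaving out a library gave 5 to 18 lower calls, with 18 without WT library 1, 6 without scl28-3 library 2 and 5 without any one of the other 4, and 0 higher calls throughout; fewer samples entered these fits. A fit with the replicate block called 40 genes lower and 24 higher and 0 of the members, whose lowest adjusted p was 0.564, with 0 at an unadjusted p under 0.05. The labels do not say that libraries sharing a number belong together, so the libraries were not treated as pairs. Deviations from the genotype means had correlations of 0.441, 0.044 and 0.498 between libraries numbered 1, 2 and 3. Between libraries of different numbers the correlations ran from -0.456 to 0.064, the last for WT library 2 with scl28-3 library 3. Deviations from a mean of 3 libraries sum to 0, so these correlations depend on each other. Values below 0 between different numbers partly follow from that. The libraries numbered 1 and those numbered 3 had the highest of these correlations, and whether they shared a preparation was not tested. With 3 libraries a genotype, the interval of each member gives the sizes of difference that depth and replication leave unresolved for it. The outer bounds on the log2 scale were -0.42, for RANGAP1, and 0.38, for TAN and AIR9. The intervals of the other members were narrower, such as -0.25 to 0.14 for TON1B.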

Other observations

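REN1 was placed in the list of further division plane genes, and a part in division was not tested for it. It encodes a GTPase-activating protein of the same family as the PHGAP proteins and is best known from pollen tubes. Its levels were 30.36, 30.47 and 36.23 CPM in scl28-3 and 24.19, 25.29 and 26.50 CPM in WT. All 3 scl28-3 libraries lay above all 3 WT libraries, with a log2 difference of 0.32 ± 0.10 (SE, n = 3 each), which did not pass in limma (unadjusted p = 0.00981, adjusted p = 0.995) and ran from 0.24 to 0.36 when a library was left out. PP2AC5, a catalytic subunit of protein phosphatase 2A, was at 57.44, 57.78 and 60.25 CPM in scl28-3 and at 61.18, 62.69 and 67.13 CPM in WT, and NEDD1, a gamma-tubulin complex targeting factor, at 26.51, 25.97 and 28.96 CPM in scl28-3 and at 25.32, 25.58 and 22.90 CPM in WT. Neither overlapped between genotypes and neither passed, each with a limma adjusted p of 0.995. Of 90 context genes tested, 7 (7.78%) showed no overlap, 6 with scl28-3 higher and 1 with scl28-3 lower, against 10.4% of all genes tested. The other 4 were AUR1, a mitotic kinase, SHR, a root patterning factor, and the endodermis genes MYB36 and SGN3. Their log2 differences were 0.09 for AUR1, 0.14 for SHR, 0.25 for MYB36 and 0.33 for SGN3, each with a limma adjusted p of 0.995. These 7 genes were named after their values were seen.

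The 5 genes whose centred log2 values over the 6 libraries lay nearest to the mean profile of the 10 division site genes were AT4G02030, AT5G49580, GulLO5, HMG (AT3G28730) and AT5G26680, among 11681 genes with a mean of at least 10 CPM. Their root mean square difference from that profile was between 0.0181 and 0.0197 on the log2 scale, beside a median of 0.136 for all genes compared and values between 0.0427, for PHGAP1, and 0.119, for TON1B, among the members themselves. The 5 genes were picked by this same distance, so their small values follow from the choice. Whether they share regulation with the members was not tested.

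The lists of other cell types gave 0 called members. The median log2 difference was 0.43 for the 9 endodermis genes, 0.22 for 8 root hair genes, 0.16 for 6 xylem genes, 0.06 for 4 root cap genes, -0.05 for 5 root meristem genes and -0.01 for 4 leaf photosynthesis genes. Without WT library 1 the medians were 0.07 for the endodermis, 0.17 for root hair, -0.01 for xylem, 0.15 for root cap, 0.05 for root meristem and -0.18 for leaf photosynthesis. Without scl28-3 library 3 they were 0.25 for the endodermis, 0.13 for root hair and 0.05 for xylem. Over all 6 fits with a library left out they ran from 0.07 to 0.71 for the endodermis, 0.13 to 0.35 for root hair, -0.01 to 0.24 for xylem, -0.13 to 0.19 for root cap, -0.10 to 0.05 for root meristem and -0.21 to 0.15 for leaf photosynthesis. Summed CPM ran from 325 to 480.1 in scl28-3 and from 172 to 401 in WT for the endodermis list, where the lowest sum was that of WT library 1.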
